A study of Homo sapiens with 4 samples.

Results

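The 10 genes described here encode core members of the BCL2 family, namely BCL2, BCL2L1, MCL1, BAX, BAK1, BID, BBC3, PMAIP1, BCL2L11 and BAD. They were taken by symbol from 26726 genes listed in the deposited tables, and all 10 had a row and enough counts for a test. HN12 is a cell line from head and neck squamous cell carcinoma (HNSCC). Parental HN12 cells (WT) were compared with HN12 cells in which ATAD3A, a nuclear-encoded ATPase of the mitochondrial membranes, had been knocked out with CRISPR/Cas9 (KO), with 2 libraries of each from independent cultures. KO cells had passed puromycin selection and were grown from single cells, the clones behind the libraries are not given in the sources used here, and both groups were otherwise untreated. The comparison shows whether transcripts of the mitochondrial apoptosis machinery differed between KO and WT cells. Loss of ATAD3A, selection and growth from single cells cannot be told apart in it.

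The BCL2 family decides whether the outer mitochondrial membrane is opened during apoptosis. Pro-survival members (guardians), such as BCL2, BCL-XL (the long product of BCL2L1) and MCL1, hold back the effectors BAX and BAK, which form pores and release cytochrome c into the cytosol. BH3-only proteins report stress by binding guardians or by activating effectors, and NOXA, the product of PMAIP1, binds mainly MCL1. Much of this control lies in protein turnover, phosphorylation and splicing, and counts per gene do not separate splice forms such as BCL-XL and BCL-XS or the several forms of BIM (BCL2L11).

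Counts on genes ranged from 13569971 to 18943547 per library, and 15104 genes passed the filter on low counts. ATAD3A itself held 702 and 492 counts in KO and 1802 and 1471 in WT libraries, which gave a log2 fold change of -1.70 (with an SE, or standard error, of 0.09 and adjusted p = 1.58e-17). All adjusted p-values come from the quasi-likelihood test of edgeR, adjusted by Benjamini-Hochberg over all genes tested, and a gene was called at an adjusted p under 0.05. The squamous markers KRT5, KRT14, KRT17, TP63, CDH1 and SFN all passed the filter on low counts, with a summed level of 4415 to 4459 CPM (counts scaled to a fixed library size, after TMM) in KO and 1688 to 1701 CPM in WT, and the part of this difference in the results below was not tested. The markers went both ways, with KRT5 (2.63), KRT14, KRT17 and SFN called higher and TP63 (-0.28) and CDH1 (-0.24) called lower, and KRT5 alone was at 2440 to 2468 CPM in KO and 390.9 to 402.5 CPM in WT. Markers of other cell types were low in both groups, at 11.8 to 16.7 CPM summed over the fibroblast markers with a row (3 of 4), 2.66 to 3.96 CPM over the leukocyte markers (3 of 4) and 0.854 to 1.84 CPM over the endothelial markers (2 of 3). In bulk RNA, fewer cells that express a gene and less RNA per cell cannot be told apart.

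Of the 10 BCL2 family genes, BCL2L1, MCL1 and BAX were higher and PMAIP1 was lower in KO cells, and 6 genes were not called. This is 4 of 10, where 39.5% of all tested genes were called, 20.4% as higher and 19.1% as lower, a share near that of all genes. With libraries scaled by their totals only, 2508 genes were higher and 3615 lower in place of 3074 and 2891, and the same 4 family genes were called in the same directions. After the GC and length correction 2 of the 10 were higher (BCL2L1 and MCL1) and 3 lower (PMAIP1, BID and BBC3), with a median of -0.19. The median log2 fold change of the 10 genes was 0.07, against 0.00 over all tested genes. The KO and WT libraries did not overlap in 8 of the 10 genes, where this held for 68.1% of all tested genes. In 5 of the 8 KO lay above WT (34.1% of all tested genes) and in 3 below (34.0%). The largest movement among the called genes was the fall of PMAIP1, to a level 1.66-fold lower in KO, and the next was the rise of BCL2L1, to a level 1.48-fold higher.

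**Figure D1:**
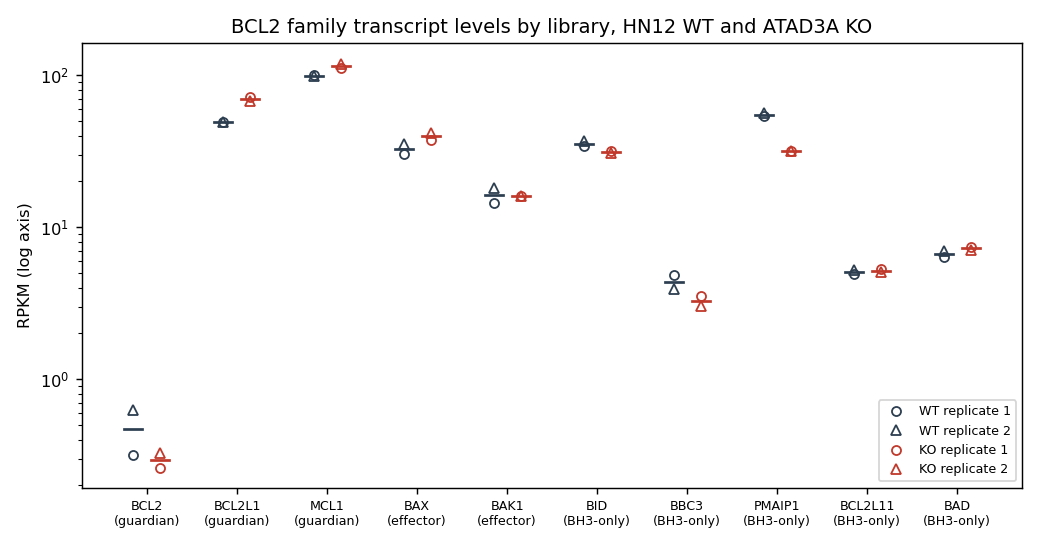
Transcript levels of the 10 BCL2 family genes as RPKM on a log axis, with circles for replicate 1, triangles for replicate 2 and a bar at the mean of each group. PMAIP1 was near 31.5 RPKM in both KO libraries and at 53.5 and 56.0 RPKM in WT, and BCL2 was far below all other members in every library.

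Levels were compared between genes per length, as RPKM (counts scaled to gene length and to the library's counts on genes). MCL1 was the most abundant member in both groups, with 99.2 ± 0.54 RPKM (SD, n = 2) in WT and 115 ± 5.84 RPKM (SD, n = 2) in KO cells. In WT cells it was followed by PMAIP1, BCL2L1, BID, BAX, BAK1, BAD, BCL2L11, BBC3 and BCL2. BID and BAX were the only neighbours in this order whose libraries overlapped. In KO cells PMAIP1 held place 4 in place of 2, below BCL2L1 and BAX, and there PMAIP1 and BID were the only neighbours that overlapped, at 31.5 ± 0.022 and 31.3 ± 0.687 RPKM (SD, n = 2). Places 6 to 10 were held by the same genes in both groups. BCL2, the founding member of the family, was at 0.294 ± 0.0461 RPKM (SD, n = 2) in KO and 0.470 ± 0.215 RPKM (SD, n = 2) in WT cells, and 6.69% of all tested genes had a lower mean level.

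Among the guardians, BCL2L1 showed the clearest rise. BCL2L1 (ENSG00000171552) is a gene of chromosome 20 (GRCh38, 31664452 to 31723989, minus strand). It held 3527 and 2963 counts in KO and 1951 and 1751 in WT libraries, which is 191 and 181 CPM in KO and 126 CPM in each WT library. Both KO libraries lay far above the WT pair, whose values were almost the same. The log2 fold change was 0.56 (SE 0.06, adjusted p = 2.56e-09). The antisense gene ABALON covers 43.0% of the exon bases of BCL2L1 and has no row in the tables, and since the use of strand is not given in the sources used here, reads of this pair cannot be told apart.

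MCL1, a short-lived guardian that restrains BAK1 and is bound by NOXA, rose by a smaller step. MCL1 (ENSG00000143384, chromosome 1 from 150574551 to 150579738, minus strand) was at 448 and 480 CPM in KO and at 384 and 379 CPM in WT libraries. The groups did not overlap, and the WT libraries lay closer to each other than the KO libraries did. The log2 fold change was 0.28 (SE 0.05, adjusted p = 5.29e-05), a level 1.22-fold higher in KO. This missed the fold threshold that was tried as an alternative, which BCL2L1, BAX and PMAIP1 met and 29.2% of all tested genes met.

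BCL2 (ENSG00000171791, chromosome 18 from 63123346 to 63320128, minus strand) was not called. Its libraries held 37 and 41 counts in KO and 36 and 63 in WT, and the groups overlapped. The log2 fold change was -0.60 (SE 0.37, adjusted p = 0.212), with a 95% interval from -1.35 to 0.16 that held both a fall and no change, so a difference was not detectable at this depth. WT replicate 2 decided the value, which was -0.05 without it and -1.0 without WT replicate 1.

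The effectors BAX and BAK1 form the pore. BAX (ENSG00000087088, chromosome 19 from 48954815 to 48961798, plus strand) was at 52.6 and 58.0 CPM in KO and at 40.2 and 46.7 CPM in WT libraries, so that KO was above WT without overlap. The change of BAX was 0.35 on the log2 scale (SE 0.09, adjusted p = 0.00278). Once GC content and gene length were corrected for, the value was 0.05 (adjusted p = 0.705 from edgeR's same test), and without WT replicate 1 it was 0.25 (adjusted p = 0.105), so the call on BAX depended on these settings. BAK1 (ENSG00000030110, chromosome 6 from 33572547 to 33580293, minus strand) was at 35.15 and 34.99 CPM in KO, between the WT libraries at 30.4 and 37.5 CPM. Its log2 fold change of 0.05 (95% interval -0.17 to 0.27) was not called and changed sign under 5 alternatives, among them scaling by library totals only (-0.02) and the GC and length correction (-0.18). Of the 50-nt stretches of a BAK1 transcript, 12.8% also occur in the pseudogene BAK1P1, and no such stretch was shared by the other 9 members.

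PMAIP1 was the member that fell. PMAIP1 (ENSG00000141682) is a gene of chromosome 18 (GRCh38, 59899948 to 59904306, plus strand). It held 1161 and 1031 counts in KO and 1581 and 1480 in WT libraries. On the CPM scale this is 63.0 and 62.9 in KO and 102 and 106 in WT, with replicates close to each other and a wide gap between the groups. The log2 fold change was -0.73 (SE 0.07, adjusted p = 3.82e-10), and 7.81% of all tested genes had a lower value. The other tested genes of chromosome 18 had a median of -0.77, close to this value.

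None of the other BH3-only genes was called. BBC3 encodes PUMA, a broad binder of all guardians, and held 123 and 93 counts in KO and 135 and 97 in WT libraries. That is 6.67 and 5.67 CPM in KO and 8.72 and 6.97 CPM in WT, with KO below WT. Its log2 fold change of -0.35 (SE 0.21, adjusted p = 0.211) became -0.84 (adjusted p = 0.00207 from edgeR's same test) after the GC and length correction. Its GC content of 69.7% was the highest of the 10 genes. BID, which links death receptors to mitochondria once cut by caspase-8, was at 81.4 and 78.7 CPM in KO and 83.1 and 89.3 CPM in WT libraries. For BID the log2 fold change was -0.11 (SE 0.07, adjusted p = 0.274), and the same correction gave -0.19 (adjusted p = 0.0292).

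BCL2L11, which encodes the activator BIM, was at 27.7 and 26.3 CPM in KO and 24.6 and 25.9 CPM in WT libraries. The log2 fold change was 0.10, with a 95% interval from -0.14 to 0.33. BAD, whose product binds BCL-XL and BCL2 when it is not phosphorylated, was at 8.84 and 8.41 CPM in KO and 7.23 and 7.84 CPM in WT libraries. The log2 fold change of BAD was 0.20, with a 95% interval from -0.20 to 0.59, and it was -0.28 after the correction. In both genes the KO libraries lay above the WT libraries by less than the test could call. GPR137, on the opposite strand, covers 23.7% of the exon bases of BAD, and MIR4435-2HG covers 10.9% of those of BCL2L11. Both of these genes have a row of counts, unlike ABALON, and how reads over such pairs were counted is not given in the sources used here.

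**Figure D2:**
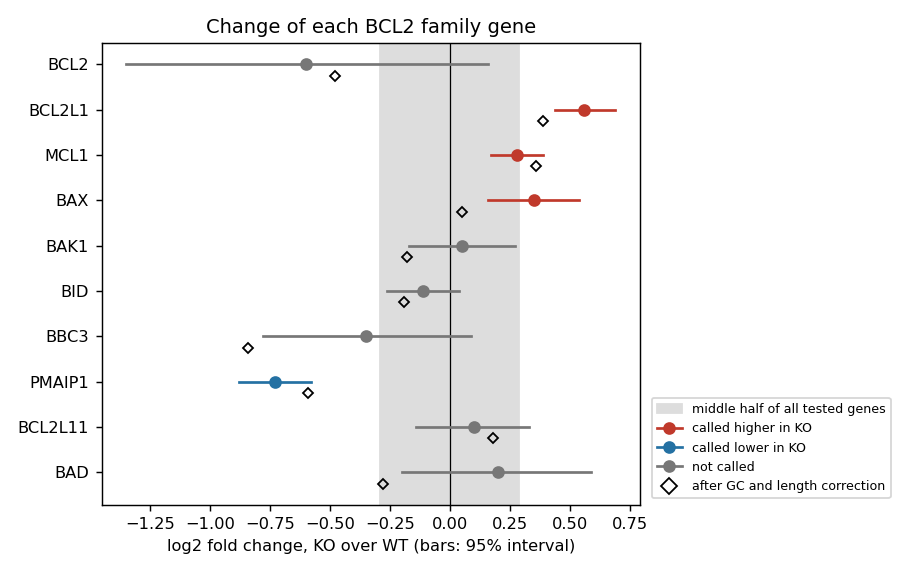
Log2 fold change (KO over WT) of each member from edgeR's quasi-likelihood test, with the 95% interval as a bar, the value after the GC and length correction as a diamond and the interquartile range of all tested genes (-0.29 to 0.29) in grey. BCL2L1, MCL1 and PMAIP1 keep their side of 0 after the correction, while BAX moves from 0.35 to 0.05 and BBC3 from -0.35 to -0.84.

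Summed over the listed members of each role, guardian transcripts were at 182 and 187 RPKM in KO and 149 RPKM in each WT library. BH3-only transcripts were at 79.5 and 77.4 RPKM in KO and 104 and 109 RPKM in WT libraries. Thus the sum of the listed guardians was above and that of the listed BH3-only genes below WT, without overlap. The sum over all 10 genes was 319 ± 4.57 RPKM (SD, n = 2) in KO and 304 ± 9.43 RPKM (SD, n = 2) in WT. Single tested genes did not overlap in 68.1% of cases. Within the roles BCL2 (-0.60), BCL2L11 (0.10) and BAD (0.20), none of them called, went against their sum. BCL2L1, MCL1, PMAIP1, BID and BBC3 went with it. PMAIP1 made up 51.5 ± 0.079% of the BH3-only sum in WT and 40.1 ± 0.774% in KO cells (SD, n = 2). Without PMAIP1 the BH3-only sum was 47.0 ± 1.48 RPKM (SD, n = 2) in KO and 51.5 ± 1.83 RPKM (SD, n = 2) in WT cells. The effector sum was 53.7 and 57.7 RPKM in KO and 44.7 and 53.2 RPKM in WT, so that the nearest libraries of the groups lay close together. Family genes outside the 10 were in none of these sums. Among them the BH3-only gene BIK went against the fall of the BH3-only sum, at 27.42 and 27.54 RPKM in KO and 24.96 and 21.65 RPKM in WT. BMF, also BH3-only, was at 0.843 RPKM in KO and 0.874 RPKM in WT on average. The guardian BCL2L2 was at 15.06 and 13.11 RPKM and the effector-like BOK at 11.35 and 8.268 RPKM.

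Ratios within a library do not depend on its scaling and were therefore set side by side, as a description without a test. MCL1 transcripts outnumbered those of PMAIP1, its BH3-only partner, by 3.52 and 3.78 in KO and by 1.86 and 1.77 in WT libraries. BCL2L1 was below PMAIP1 in WT, at ratios of 0.921 and 0.883, and above it in KO, at 2.27 and 2.15. The ratio of the listed guardians to the listed BH3-only genes was 2.35 ± 0.0847 in KO and 1.40 ± 0.0494 in WT (SD, n = 2). It leaves out BIK, BMF and BCL2L2, so its level depends on which genes were listed. BCL2L1 to BAX, at 1.89 and 1.62 in KO and 1.63 and 1.40 in WT, overlapped between groups, as did guardians to effectors. The share of guardian transcripts from BCL2L1 was 37.6 ± 2.10% in KO and 33.1 ± 0.128% in WT (SD, n = 2), and that from BCL2 was at most 0.418%. These ratios compare RNA and not protein, and they include no GC and length correction. That correction moved the log2 fold change of BCL2L1 from 0.56 to 0.39 and that of PMAIP1 from -0.73 to -0.59. For MCL1 it gave 0.36 in place of 0.28. Ratios to PMAIP1 or to the BH3-only sum also carry the fall of PMAIP1, which was close to the median of chromosome 18.

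**Figure D3:**
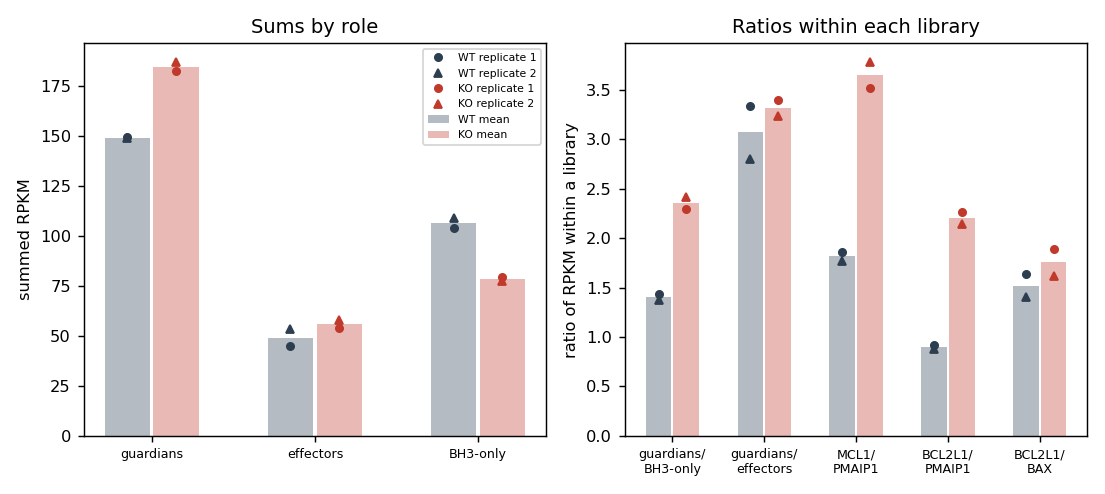
Left, summed RPKM of the listed members by role. Right, ratios of RPKM within a library. Bars show the mean of the group and symbols the libraries. Guardians over BH3-only, MCL1 over PMAIP1 and BCL2L1 over PMAIP1 are higher in both KO libraries than in both WT libraries, and BCL2L1 over BAX overlaps.

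Both members with the lowest log2 fold changes, PMAIP1 and BCL2, lie on chromosome 18, whose genes were lower in KO cells as a whole. The other 193 tested genes of this chromosome had a median log2 fold change of -0.77 (quartiles -1.05 and -0.45), and 138 of them, or 71.5%, were called lower, where 18.7% were called lower on other chromosomes. PMAIP1 lay 0.04 above this median and BCL2 lay 0.17 above it. Of the 193 genes, 104 had a lower value than PMAIP1 and 122 a lower value than BCL2, and both members lay between the quartiles of their chromosome. The 5 nearest tested genes on each side had a median of -0.97 around PMAIP1, with 9 of 10 below 0, and of -0.98 around BCL2, also with 9 of 10 below 0. On the long arm alone, with a median of -0.84 over 140 genes, PMAIP1 lay 0.12 above the median. A change of PMAIP1 or BCL2 of their own and a shift of the chromosome as a whole cannot be told apart in these libraries, and no DNA data were analysed here.

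The members on other chromosomes were set beside their surroundings in the same way. BCL2L1 was 0.47 above the median of chromosome 20 (0.09 over the 372 other tested genes), and its 10 nearest tested genes had a median of -0.11. MCL1 was 0.24 above the median of chromosome 1, and its 10 neighbours had a median of -0.13 and ranged from -0.52 to 0.47. BAK1, which was not called, lay 0.23 above the median of chromosome 6, with neighbours at a median of -0.11. BAX was 0.10 above the median of chromosome 19, which was 0.25, and its 10 neighbours had a median of 0.24. BBC3, on the same chromosome as BAX, differed from that median by -0.60, with neighbours at a median of 0.20. BID differed from the median of chromosome 22 by -0.05, and its neighbours had a median of -0.25, with 8 of 10 below 0. BCL2L11 lay 0.11 above the median of chromosome 2, with neighbours at a median of 0.20. BAD lay 0.15 above the median of chromosome 11. Its 10 neighbours had a median of 0.51, and 7 of them were called higher.

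**Figure D4:**
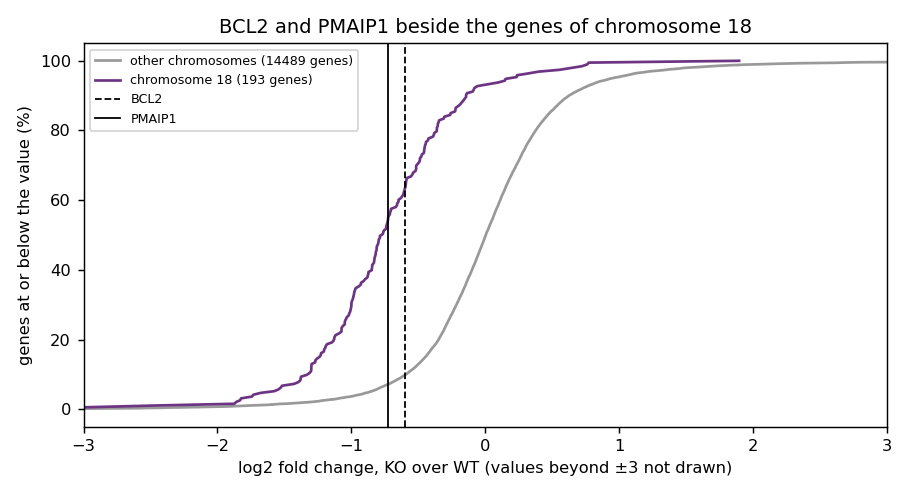
Cumulative share of tested genes by log2 fold change (KO over WT) for chromosome 18 without BCL2 and PMAIP1 and for all other chromosomes, with vertical lines at the values of PMAIP1 (-0.73) and BCL2 (-0.60). Both lines cross the chromosome 18 curve near its middle, with 53.9% and 63.2% of that chromosome's genes below them, and the curve of other chromosomes near 7.08% and 9.84%.

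Promoter windows from 250 bases before to 50 bases after a gene start were taken from RefSeq on GRCh38.p14, where 9 of the 10 members had 15 windows. MCL1 had none. The windows of BAX, BBC3 and PMAIP1 are shown as examples of genes called higher, not called and called lower. BCL2L1 was also called higher, with a larger log2 fold change (0.56), and its windows are not shown. The value of BAX was 0.05 after the GC and length correction. Capitals mark matches to the motifs searched on both strands, which were the cAMP response element TGACGTCA, the AP-1 site TGANTCA, the E-box CACGTG and the ATF4 element TTGCATCA.
BAX (chr19:48954625-48954924, plus strand): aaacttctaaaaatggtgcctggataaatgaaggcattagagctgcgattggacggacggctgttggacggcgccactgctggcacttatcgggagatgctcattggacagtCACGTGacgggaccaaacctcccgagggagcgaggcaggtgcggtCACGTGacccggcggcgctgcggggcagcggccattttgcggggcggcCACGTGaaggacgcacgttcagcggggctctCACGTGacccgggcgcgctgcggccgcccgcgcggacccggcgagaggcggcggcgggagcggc
BBC3 (chr19:47232618-47232917, minus strand): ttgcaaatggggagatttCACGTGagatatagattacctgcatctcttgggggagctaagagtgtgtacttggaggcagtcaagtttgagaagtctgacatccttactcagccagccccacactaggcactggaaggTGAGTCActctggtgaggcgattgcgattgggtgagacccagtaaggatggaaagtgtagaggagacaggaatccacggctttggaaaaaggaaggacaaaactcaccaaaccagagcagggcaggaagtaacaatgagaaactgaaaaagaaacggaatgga
PMAIP1 (chr18:59899746-59900045, plus strand): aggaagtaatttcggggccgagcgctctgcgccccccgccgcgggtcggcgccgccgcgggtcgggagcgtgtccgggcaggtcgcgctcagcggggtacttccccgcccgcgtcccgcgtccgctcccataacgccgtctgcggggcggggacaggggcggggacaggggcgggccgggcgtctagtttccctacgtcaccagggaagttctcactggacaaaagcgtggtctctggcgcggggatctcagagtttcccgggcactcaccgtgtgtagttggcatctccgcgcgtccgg
The BAX window held 4 E-boxes, the motif bound by MYC and its relatives, and 5 of 35116 windows in the whole table (0.0142%) held 4 or more, while 7.26% held at least 1. The BBC3 window held 1 E-box and 1 AP-1 site, and none of the motifs was in the PMAIP1 window or in those of BCL2, BCL2L1, BCL2L11 and BAD. For BID, 2 of 5 windows, which overlap each other, held the same E-box. A match of letters does not show that a factor binds there, and sites outside these windows were not searched. A link between these motifs and the change of any member was not tested.

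Beyond the 10 genes, 7 further lists of apoptosis genes were examined. Of their 80 tested genes 19 were higher and 25 lower, or 23.8% and 31.2%, where 20.4% and 19.1% of all tested genes were. The balance depended on the setting, with 15 higher and 31 lower when libraries were scaled by their totals only and 15 higher and 9 lower at the fold threshold. Other members of the BCL2 family moved in both directions. Of 11 further family genes, 10 had a row and 6 passed the filter, of which 4 were higher and 1 was lower, with a median log2 fold change of 0.29. BOK, an effector-like relative of BAX, was at 33.0 and 28.8 CPM in KO and 21.0 and 21.9 CPM in WT libraries, with a log2 fold change of 0.53 (SE 0.12, adjusted p = 0.000409). BIK, a BH3-only gene (0.30, adjusted p = 0.0431), and BCL2L12 (0.30, adjusted p = 0.0112) rose as well by edgeR's test, and BCL2L2, the guardian BCL-W, rose by 0.27. BCL2L13, a mitophagy receptor of the outer membrane, fell by 0.55 (adjusted p = 4.94e-09). After the GC and length correction BCL2L13 was the only one of these genes called, and BOK was at 0.18, BIK at 0.00 and BCL2L12 at 0.01. DESeq2 called 1 higher and 1 lower. BMF, another BH3-only gene, had a log2 fold change of 0.01 and was not called.

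Downstream of the pore, cytochrome c (CYCS), APAF1 and caspase-9 form the apoptosome, which activates further caspases. The list of these genes also held other caspases, among them CASP8, whose product cuts BID and so acts before the pore. Of its 9 genes none was higher and 4 were lower, CASP9 (-0.59), CASP6 (-0.42), APAF1 (-0.26) and CASP8 (-0.25). The median log2 fold change was -0.25. The shares over all tested genes were 20.4% higher and 19.1% lower. CASP9 held 112 and 74 counts in KO and 109 and 125 in WT libraries, which is 6.08 and 4.51 CPM in KO and 7.04 and 8.99 CPM in WT, with a wide spread inside each group. The abundant CYCS (0.02, adjusted p = 0.777) was not called by edgeR. DESeq2 called 0 of the 9 genes, with 3 at an unadjusted p under 0.05, and 1 was called without KO replicate 2 or without WT replicate 2. After the GC and length correction 2 were higher and 2 lower, and APAF1 was at -0.04 (adjusted p = 0.738).

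Inhibitors of apoptosis proteins (IAPs) block caspases or feed ubiquitin signals, and DIABLO and HTRA2 counter them after release from mitochondria. Of 9 listed genes 7 were tested, 3 were lower and none was higher, with a median of -0.28, where 19.1% of all tested genes were lower and 20.4% higher. BIRC3, a target of NF-kB, was at 42.7 and 48.2 CPM in KO and 86.1 and 83.8 CPM in WT libraries. Its fall of 0.90 on the log2 scale had a standard error of 0.08 (adjusted p = 4.19e-11), and the groups were far apart. BIRC6 fell by 0.39 and BIRC5 by 0.28. BIRC6 was at -0.08 after the GC and length correction (adjusted p = 0.267), and BIRC5 lost its call by DESeq2 (adjusted p = 0.0589). XIAP (-0.12, adjusted p = 0.171) and BIRC2 (-0.12, adjusted p = 0.141) were not called by edgeR, though scaling by library totals only called 5 genes of the list lower.

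The death receptor pathway, which joins the mitochondrial route through BID, was mixed. Of 14 genes 13 were tested, 3 were higher and 4 were lower, with a median log2 fold change of -0.13. CASP8 was counted with the caspases and not here. Over all tested genes these shares were 20.4% and 19.1%. The adaptor FADD (0.63, adjusted p = 0.000188), the receptor TNFRSF25 (0.57, adjusted p = 0.000713) and TNFRSF1A, the main receptor for TNF (0.41, adjusted p = 5.26e-06), rose by edgeR's test. The ligand TRAIL (TNFSF10) fell by 1.16 (adjusted p = 0.00181), from 99 and 67 counts in WT to 52 and 36 in KO libraries. FAS fell by 0.40 (adjusted p = 0.0126) and RIPK1 by 0.33 (adjusted p = 0.00947), with TNFRSF10D as the remaining gene called lower. Without WT replicate 1 none of these 4 was called lower by edgeR, and FAS also lost its call after the GC and length correction (-0.24, adjusted p = 0.141) and by DESeq2 (adjusted p = 0.0575). The TRAIL receptors TNFRSF10A (0.11, adjusted p = 0.313) and TNFRSF10B (0.14, adjusted p = 0.10) were not called.

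**Figure D5:**
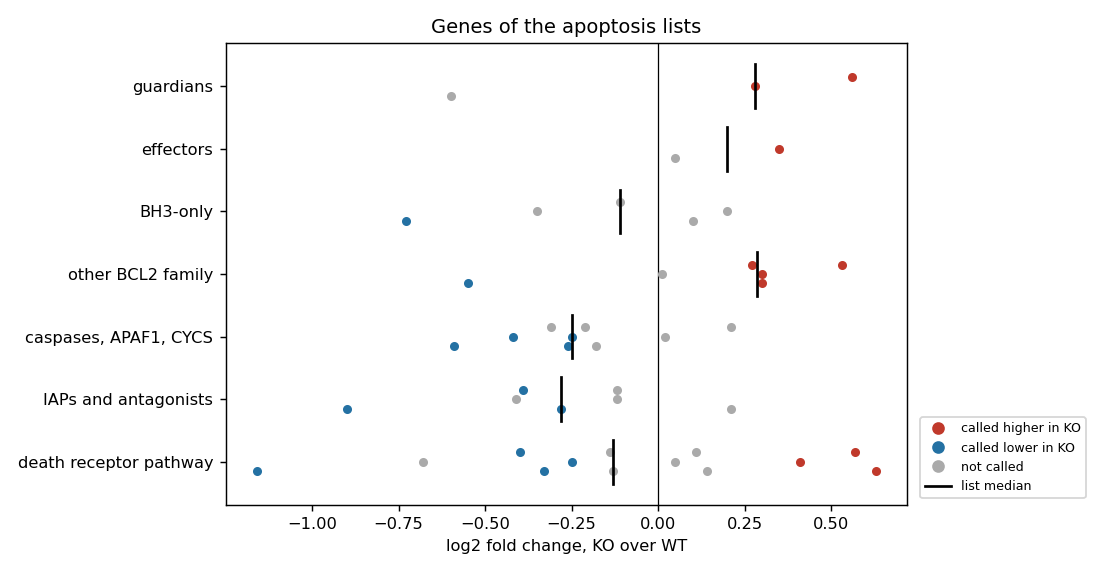
Log2 fold change (KO over WT) of each tested gene among the 10 members and in 4 of the further lists, coloured by call, with a bar at the list median. Caspase and IAP genes have medians of -0.25 and -0.28, and other BCL2 family genes one of 0.29.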

How the data were processed

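RNA-seq libraries of 2 KO and 2 WT cultures of HN12 cells were analysed. The deposited counts per gene were raw read counts, and the deposited RPKM values had been scaled by the authors to gene length and counts on genes; the submitters' processing notes name CASAVA, STAR 2.5, HTSeq, edgeR 3.16.5, DESeq2 and hg19. Counts were tested with edgeR 4.0.16 (quasi-likelihood test, TMM, filterByExpr, no replicate block) and adjusted by Benjamini-Hochberg over 15104 genes. P-values measure only the spread between these libraries. Levels between genes were compared as RPKM, whose depth is that of the counts. Positions and GC content came from GENCODE on GRCh38 by Ensembl identifier, since the tables hold no coordinates. Promoters came from RefSeq. The test was also run on simulated data, with levels and spread taken from the fit to these libraries. The members and lists were chosen with earlier results of these data known. Named genes were all 10 members, ATAD3A, TP63, TP73 and, from each list, the 3 largest rises and falls among called genes with a mean of at least 1 CPM. Some genes, a motif and a list that this rule or the lists cover are not reported here. Further list genes named in the text were chosen after their values were seen. Alternatives were DESeq2 1.42.0, edgeR's exact test, limma 3.58.1 on log2(RPKM + 1) and log2(RPKM + 0.1), other scalings and filters, a replicate block, a correction for GC content and length by splines (14684 genes with both values), a threshold on the fold change (unadjusted p under 0.05 and a fold over 1.25 or under 0.75) and leaving out each library. A count of 3, the floor used here, is 0.158 to 0.221 CPM, which covers counting error only.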

Additional observations from a re-analysis of the deposited data

How the results depend on the processing

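The fold threshold, stricter for falls than for rises on the log2 scale, left 1847 genes called lower in place of 2891 and 2565 higher in place of 3074. In the further lists it called 24 genes (15 higher and 9 lower) and DESeq2 29, in place of 44. Leaving out 1 library at a time gave 4416 to 5666 called genes, 3 to 4 called members and 31 to 40 called list genes, with ATAD3A between -1.89 and -1.55. The member lost was BAX, without WT replicate 1. With 1 library left in a group, that library was assumed to vary like the other group. BAK1 changed sign after the GC and length correction (-0.18), with library totals only (-0.02), in both limma fits (-0.01) and without WT replicate 1 (-0.09, with 0.21 without WT replicate 2 as the other end of the range), and BAD after the GC and length correction (-0.28). PMAIP1 lay 0.12 above the median of the long arm, in place of 0.04 above that of chromosome 18. Whether equal replicate numbers pair the libraries is not given in the sources used here. The KO1 to KO2 and WT1 to WT2 differences had a correlation of -0.0294 across tested genes, which cannot decide this. A fit with the replicate block called 5820 genes in place of 5965, the same number of members (4) and 43 list genes. Depth limits BCL2 most, at 36 to 63 counts per library. The causes of these differences were not tested.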

Other observations

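Regulators of BCL2 family transcription were examined as a further list. Of 12 genes 5 were higher, 1 was lower and 6 were not called, with a median log2 fold change of 0.18. Among all tested genes 20.4% were higher and 19.1% lower. MYC was at 282 CPM in both KO libraries and at 156 and 159 CPM in WT. This is a rise of 0.84 on the log2 scale (SE 0.06, adjusted p = 1.46e-14 by edgeR). JUN rose by 0.79 and FOXO1 by 0.47. FOXO1 was not called in either limma fit (adjusted p = 0.079 and 0.088 by limma), and its value was 0.25 without KO replicate 2. Its KO libraries lay apart, at 46.8 and 62.8 CPM, with WT at 39.9 and 38.75 CPM. RELA and STAT3 were the remaining genes called higher. TP63, which marks squamous cells, was at 261 and 292 CPM in KO and 334 and 337 CPM in WT libraries and fell by 0.28 (adjusted p = 0.000164), which was -0.12 (adjusted p = 0.0521) after the GC and length correction. TP73 (0.23, adjusted p = 0.0899) was not called.

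Genes that act on BCL2 family proteins after translation were examined as another list. Of 13 genes 5 were lower and none was higher, with a median log2 fold change of -0.13, where 19.1% of all tested genes were lower and 20.4% higher. USP9X, a deubiquitinase that stabilises MCL1, was at 83.9 and 94.0 CPM in KO and 137 and 138 CPM in WT libraries, a log2 fold change of -0.63 (SE 0.07, adjusted p = 1.94e-09 by edgeR). HUWE1, a ubiquitin ligase that marks MCL1 for degradation, was at 362 and 414 CPM in KO and 502 and 500.3 CPM in WT libraries, a log2 fold change of -0.37 (adjusted p = 1.81e-06). VDAC2, an outer membrane channel that binds BAK, fell by 0.33. The remaining genes called lower encode the 14-3-3 proteins YWHAZ (-0.32) and YWHAE (-0.15), which bind phosphorylated BAD. After the GC and length correction 1 gene of this list was higher and 6 were lower, and at the fold threshold only 1 was called, as lower.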
